A study of Mus musculus with 24 samples.

Results

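Prefrontal cortex RNA in 6 libraries from fluoxetine-treated mice carrying a heterozygous Dyrk1a allele was compared with that in 6 libraries from wild-type mice on vehicle. These 12 libraries are 12 of 24 in the series and were taken by their labels: genotype HT with fluoxetine against genotype WT with vehicle, 3 females and 3 males in each. All mice were C57BL/6J and postnatal day 40. The HT libraries carry the genotype Dyrk1a+/I48X and differ from the WT libraries in both the allele and the drug, so the effects of genotype and of fluoxetine cannot be told apart in this comparison. A further 6 libraries are HT on vehicle, and their values are given beside those of many, but not all, of the named genes. That arm shares no libraries with HT fluoxetine, but both were set against the same 6 WT libraries. Doses, the length of treatment, the time of day at collection and the number of animals behind a library are not given in the labels.

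DYRK1A is a protein kinase of neurons and glia that phosphorylates splicing factors, NFAT transcription factors and cell cycle proteins, and it binds the adaptor DCAF7. People with 1 working copy have a syndrome of small head size, intellectual disability and autism. Fluoxetine blocks the serotonin transporter, which is made mainly in the cell bodies of brainstem neurons and carries serotonin back into their terminals in the cortex.

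Recovered depth was 24650372 to 35940460 reads per library. Xist and Ddx3y matched the sex label in 12 of 12 libraries, and the excitatory neuron marker Slc17a7 stood between 28907 and 53751 normalised reads in all of them. The dissections were not alike. Doc2g, a marker of olfactory bulb mitral cells, stood at 6972 in HT fluoxetine male 1, at 5332 in HT fluoxetine female 1 and at 5578 in WT female 2, and between 148 and 2219 in the other 9 libraries. These 3 are called bulb-high. The striatal receptor gene Drd2 was highest in WT female 1 at 371, and the choroid plexus gene Ttr was highest in HT fluoxetine female 2 at 781. Over all 16 bulb markers, the summed level ran from 12556 to 66658 in HT fluoxetine and from 12971 to 60921 in WT, and none was at 0 in all libraries. HT fluoxetine female 3 is from batch P40_L2 and the other 11 libraries from P40_L1, so the values without that library are the within-batch values. Tissue content differed in the HT vehicle arm too. Against WT, 0 of 16 bulb markers were higher there (median -0.62) and 14 of 14 striatal markers were higher (median 0.17). What this adds to the HT vehicle values given below was not tested.

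**Figure D1:**
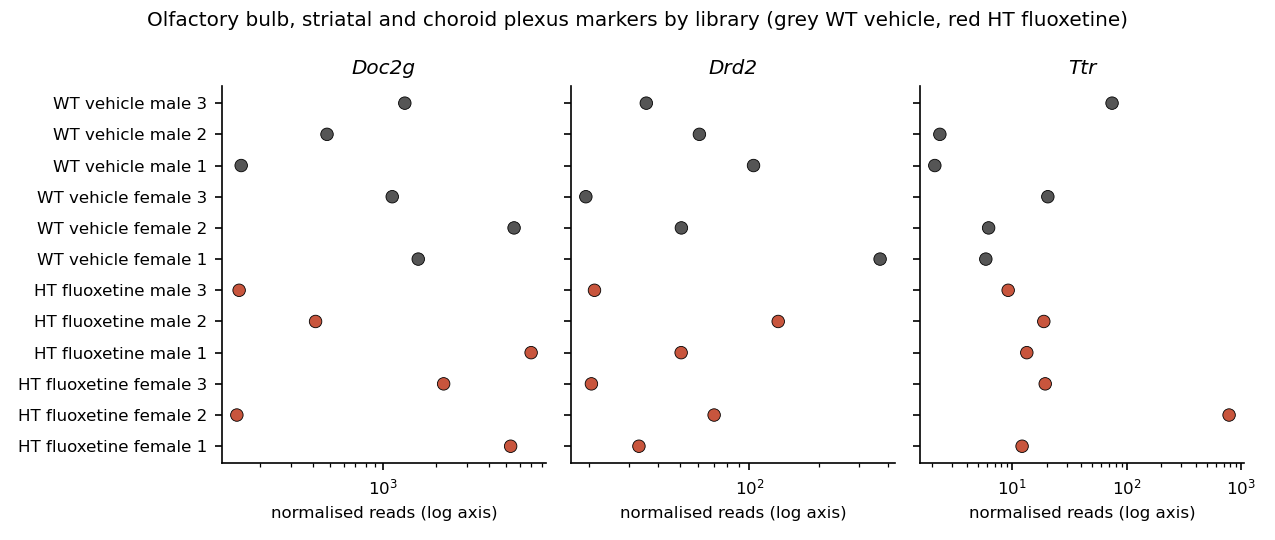
Normalised reads of the olfactory bulb marker Doc2g, the striatal marker Drd2 and the choroid plexus marker Ttr in each of the 12 libraries, on logarithmic axes. Doc2g reaches 5332 or more in 2 HT fluoxetine libraries and 1 WT library, Drd2 peaks at 371 in WT female 1 and Ttr at 781 in HT fluoxetine female 2.

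No gene passed the test. Of 16814 genes tested with limma (sex as a block, Benjamini-Hochberg adjustment), 0 had an adjusted p under 0.05, a share of 0%. The smallest adjusted p was 0.187, for Mfsd2a, and it was 0.945 for every other gene that is given a standard error here unless stated. At an unadjusted p under 0.05 there were 716 genes, fewer than the 841 that 5% of all genes would make, of which 409 were higher (2.43%) and 307 lower (1.83%). The edgeR quasi-likelihood test on recovered reads called 0 genes (699 at an unadjusted p under 0.05). The DESeq2 Wald test called 3, all higher: Mfsd2a, Sdc4 and Sult1a1. Levels of the 2 arms did not overlap for 26 genes that were higher (0.155%) and 13 that were lower (0.0773%) in HT fluoxetine. With 6 libraries an arm some of 16814 genes separate by chance, and how many was not calculated. Genes named for a small p are likely to be among them, so non-overlap is no separate evidence for these genes. The median log2 fold change over all genes was -0.002 and the median standard error 0.0977. Of all genes tested, 49.3% were higher in HT fluoxetine.

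RNA of Dyrk1a itself (ENSMUSG00000022897, at 94570010 to 94695517 of chromosome 16, GRCm38) was no lower in carriers. HT fluoxetine libraries held 2353 at the lowest, 2457 at the median and 2589 at the highest, and WT libraries 2088, 2169 and 2349. The lowest carrier was above the highest WT library by a narrow margin. The means were 2476 ± 97.5 and 2200 ± 90.8 (SD, n = 6), and HT vehicle stood at 2355 ± 61.2. The difference of 276 normalised reads gave p = 0.005 in a two-sided exact permutation test within sex, the smallest p that the 400 arrangements allow. In the fit across all genes the log2 difference was 0.17 ± 0.04 and did not pass (limma adjusted p = 0.945). The labels do not say how the allele acts on its transcript, and the genotype labels therefore cannot be checked from this level.

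Dyrk1a was also counted in a list of 12 genes, the DYRK, CLK and HIPK kinases and Dcaf7. Of the 12, 10 were higher, with a median of 0.12 (0.10 without the bulb-high libraries). An unadjusted p under 0.05 was reached by 4 of them, Dyrk1a itself, Dcaf7, Clk1 and Clk3, all higher, where 2.43% of all genes were higher at that level. Dcaf7, the WD-repeat adaptor that DYRK1A binds, ran from 8309 to 9313 in HT fluoxetine and from 7873 to 8238 in WT, again without overlap. Its mean was 8821 ± 359 against 8114 ± 134, a log2 difference of 0.12 ± 0.04, with HT vehicle at 8565 ± 205. Clk1, a kinase of SR splicing factors, stood at 3264 ± 526 against 2673 ± 406 (0.29 ± 0.11) and Clk3 at 2487 ± 151 against 2306 ± 77.5 (0.11 ± 0.05). For both of these kinases the arms overlapped.

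SR proteins and their kinases, which act in the choice of splice sites, were listed because DYRK1A and CLK kinases phosphorylate several of them. All 16 tested were higher, by a median of 0.12. An unadjusted p under 0.05 was reached by 2, where 2.43% of all genes were higher at that level. In HT vehicle against the same WT libraries 9 of 16 were higher, with a median of 0.01. Srsf10 ran from 1630 to 2059 in HT fluoxetine and from 1305 to 1904 in WT, with means of 1838 ± 171 and 1544 ± 205 (0.26 ± 0.08), and HT vehicle stood at 1525 ± 212. The splicing coactivator Srrm1 was at 4528 ± 271 against 4073 ± 332 (0.15 ± 0.06). Srsf7 and Srsf2 were at 0.15 ± 0.09 each. Without HT fluoxetine male 1 the list's median was 0.07 with 15 of 16 higher. Without the bulb-high libraries it was 0.08, also with 15 of 16 higher. The calcineurin, RCAN and NFAT genes, whose proteins act in the pathway that DYRK1A opposes, showed no common direction: 5 of 13 were higher, the median was -0.05, and 0 reached an unadjusted p under 0.05. Nfatc1 stood at 0.34 ± 0.29, Nfatc4 at 0.14 ± 0.16, Rcan2 at -0.09 ± 0.08 and the anchoring protein gene Akap5 at -0.14 ± 0.15. The median of that list was -0.09 to -0.01 when single libraries were left out and 0.01 without the bulb-high libraries.

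The gene with the smallest p was Mfsd2a (ENSMUSG00000028655, chromosome 4, 122946850 to 122961188 on GRCm38), which encodes the transporter that carries lysophospholipid-bound omega-3 fatty acid across the brain endothelium. It ran from 670 through a median of 717 to 765 in HT fluoxetine and from 475 through 521 to 594 in WT. No library of one arm reached the other. Its mean was 711 ± 36.5 against 523.5 ± 42.8, 35.8% higher, with HT vehicle between them at 596 ± 60.0. The log2 difference was 0.44 ± 0.06, 0.40 in females and 0.49 in males (limma adjusted p = 0.187, edgeR 0.207, DESeq2 1.82e-06). With the bulb marker score as a covariate limma also called it (adjusted p = 0.0414), and leaving out single libraries gave 0.0702 to 0.816.

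Sdc4, a heparan sulfate proteoglycan of the cell surface, came next. Its levels ran from 924 to 1155 in HT fluoxetine and from 668 to 883 in WT, without overlap, and the means were 1076 ± 85.5 and 802 ± 76.6 (0.42 ± 0.08, DESeq2 adjusted p = 0.00182). HT vehicle stood at 959 ± 74.9. Sult1a1, a sulfotransferase of phenolic compounds, was at 280 ± 29.3 against 195 ± 27.3 (0.52 ± 0.11, DESeq2 adjusted p = 0.0301), and the arms met at 237. Eva1a, a regulator of autophagy, was at 273 ± 23.8 against 214 ± 13.5 (0.35 ± 0.07), with the vehicle carriers just as high at 278 ± 33.8. The Wnt receptor gene Fzd2 was at 366 ± 45.1 against 274 ± 21.9 (0.41 ± 0.09), with HT vehicle at 309 ± 40.2. Neither Eva1a nor Fzd2 overlapped between the arms.

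**Figure D2:**
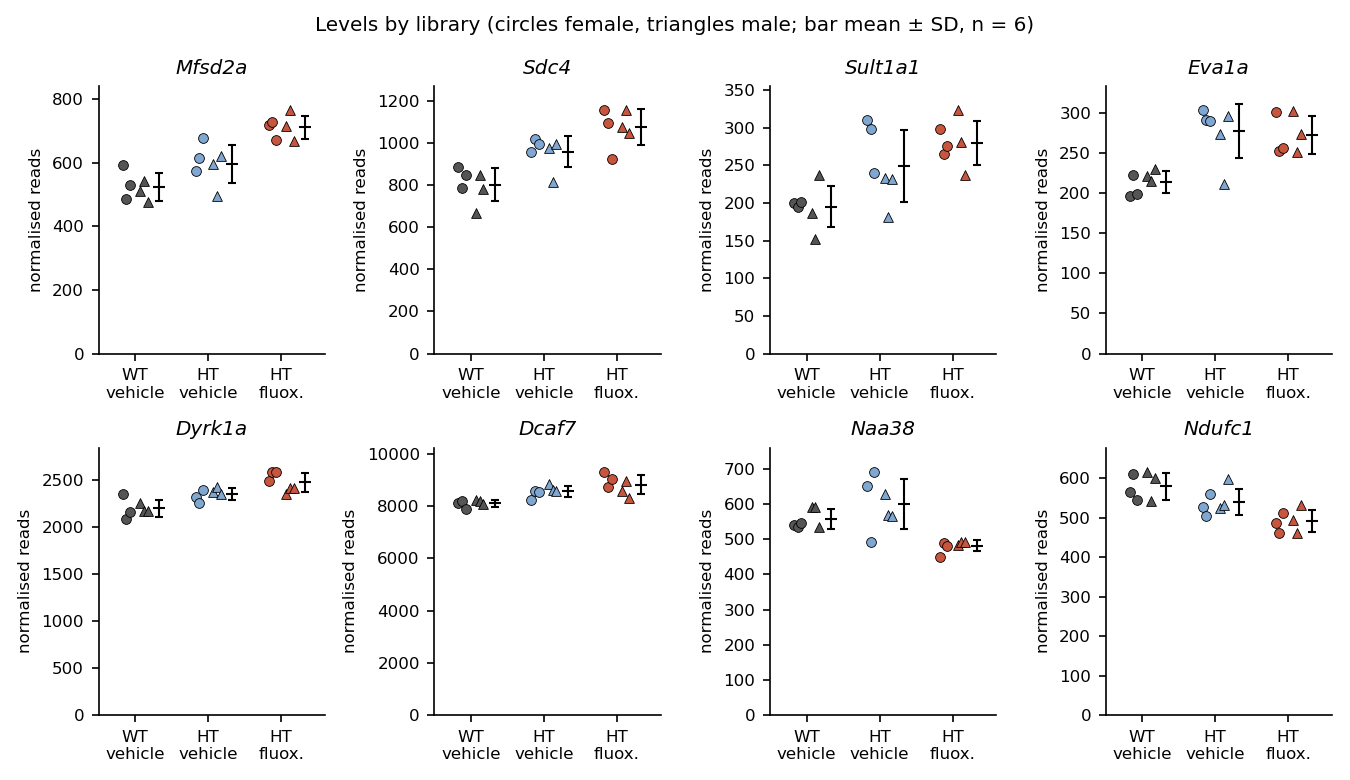
Normalised reads of 8 genes in each library of the WT vehicle, HT vehicle and HT fluoxetine arms, with circles for females, triangles for males and a bar at the mean ± SD of 6 libraries. HT fluoxetine libraries lie above all WT libraries for Mfsd2a (670 to 765 against 475 to 594), Sdc4, Eva1a, Dyrk1a and Dcaf7, below them for Naa38 and Ndufc1, and meet them for Sult1a1.

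On the other side the smallest p belonged to Naa38, which encodes an auxiliary subunit of the NatC N-terminal acetyltransferase. It ran from 451 to 493 in HT fluoxetine and from 534 to 593 in WT, with means of 481 ± 15.5 and 557 ± 28.0 (-0.21 ± 0.04), and HT vehicle stood above both at 600 ± 71.5. Casq2, a calcium-binding protein of the endoplasmic reticulum, was at 45.2 ± 6.44 against 65.8 ± 5.24 (-0.54 ± 0.12), again without overlap. Gm12070 is annotated as a processed pseudogene, so reads may be shared with a parent gene and its level is uncertain. It stood at 65.1 ± 11.5 against 97.0 ± 12.8 (-0.58 ± 0.13). The next 2 genes by p, Ndufs3 and Ndufc1, both encode subunits of respiratory complex I.

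Complex I passes electrons from NADH to the respiratory chain and pumps protons, complexes III and IV pass them on to oxygen, and ATP synthase uses the proton gradient. Genes of these complexes lay together on the lower side. All 36 nuclear-encoded complex I subunits were lower, by a median of -0.08, and 9 of them reached an unadjusted p under 0.05, where 1.83% of all genes were lower at that level. Of 41 genes of complexes II to IV and ATP synthase, 38 were lower, by a median of -0.10, and 13 reached it. For comparison, the median of 39 mitochondrial ribosomal protein genes was -0.04, that of 31 proteasome genes -0.03, that of 54 cytosolic ribosomal protein genes -0.02 and that of the 13 genes encoded in mitochondrial DNA 0.03. The differences between these lists were not tested.

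Ndufs3, a core subunit in the arm that takes up electrons, ran from 1863 through a median of 1988 to 2058 in HT fluoxetine and from 2026 through 2264 to 2367 in WT. Only the top of one range touched the bottom of the other. The means were 1981 ± 73.3 and 2237 ± 126 (-0.17 ± 0.04). Ndufc1, an accessory subunit, ran from 462 to 532 and from 543 to 617, without overlap (492 ± 27.7 against 580 ± 33.8, -0.24 ± 0.06). Ndufb6 was at 831 ± 36.8 against 941 ± 57.8 (-0.18 ± 0.05) and Ndufs6 at 1042 ± 70.2 against 1173 ± 57.8 (-0.17 ± 0.05). Among the later complexes, the complex III subunit Uqcrq stood at 2365 ± 171 against 2681 ± 92.9 (-0.18 ± 0.05) and the cytochrome oxidase subunit Cox7b at 3041 ± 169 against 3469 ± 255 (-0.19 ± 0.06). The ATP synthase subunits Atp5j2 and Atp5e stood at -0.17 ± 0.05 and -0.25 ± 0.07.

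Most of these genes were at or above the WT level in the vehicle carriers, whose tissue content also differed from WT. Ndufs3 stood at 2326 ± 74.8, Ndufb6 at 962 ± 36.3, Ndufs6 at 1253 ± 134, Uqcrq at 2899 ± 339 and Cox7b at 3640 ± 180, each above the WT mean, while Ndufc1 stood at 541 ± 33.2. Set against WT, HT vehicle was higher for 27 of 36 complex I genes (median 0.03) and for 22 of 41 genes of the other complexes. Within HT fluoxetine against WT, the complex I median was -0.11 in females and -0.08 in males, and -0.10 to -0.07 when single libraries were left out. Without the libraries highest in Drd2 and Ttr it was -0.06 with 4 of 36 higher and 6 at an unadjusted p under 0.05, and without the bulb-high libraries -0.11 with 3 higher. For the other complexes the median without the libraries highest in Drd2 and Ttr was likewise -0.06, with 4 of 41 higher and 7 at that level. Fewer cells rich in mitochondria and less of this RNA per cell cannot be told apart in bulk tissue.

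**Figure D3:**
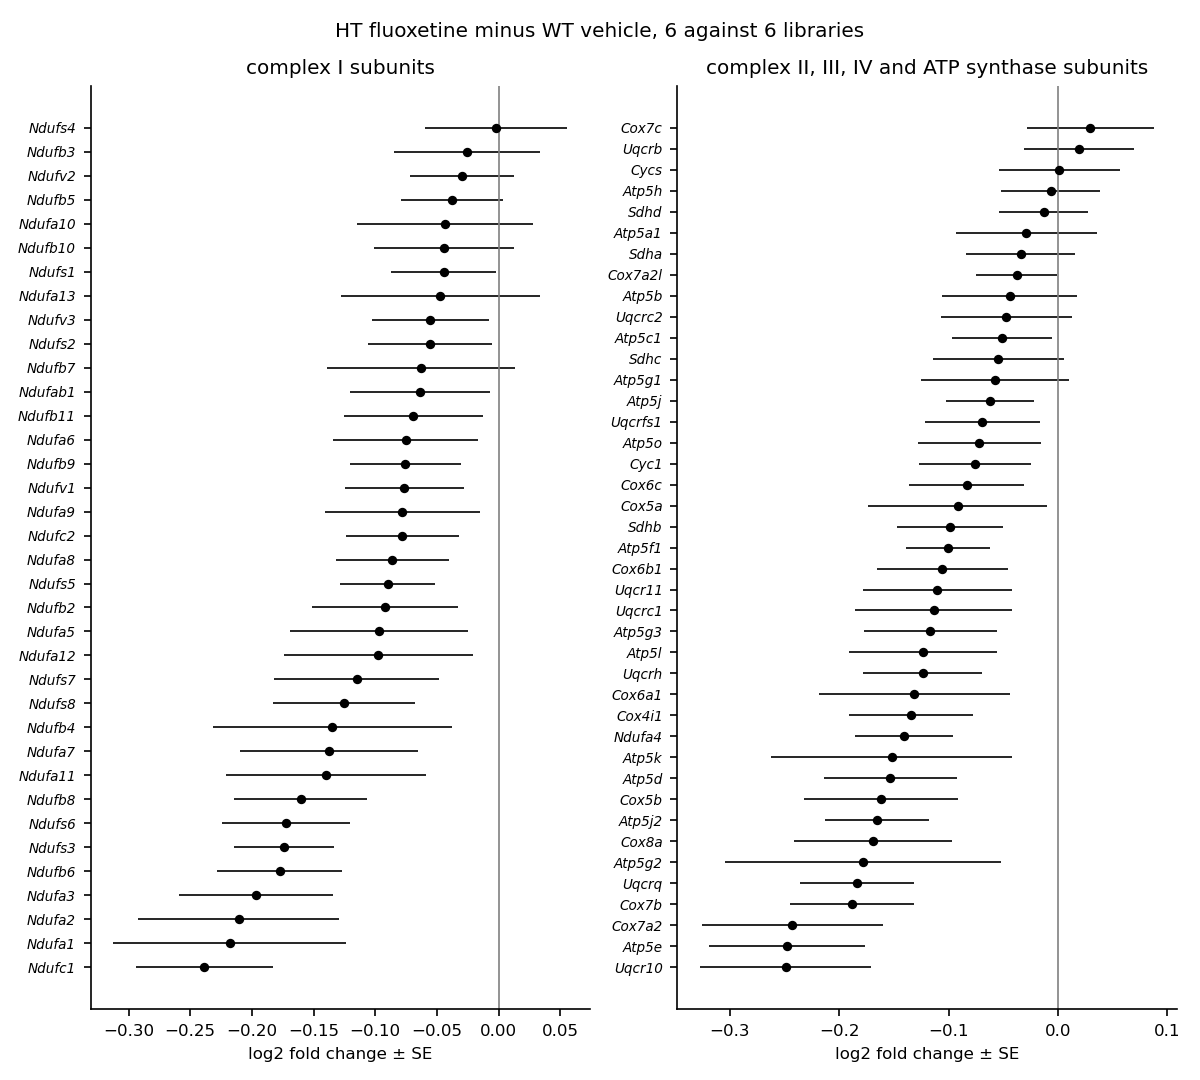
Log2 fold change of each nuclear-encoded respiratory chain gene, HT fluoxetine minus WT vehicle, with points at the limma estimate and bars of 1 standard error. All 36 complex I genes lie at or left of 0, and 38 of the 41 genes of the other complexes do.

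In the circadian clock, CLOCK and ARNTL (BMAL1) bind E-box sequences and switch on the Per and Cry genes, whose proteins then shut CLOCK and ARNTL off. The E-box letters are CACGTG. Promoter windows of 250 bases before to 50 after a start were taken from RefSeq on GRCm38.p6, and 17 of the 19 clock and output genes matched. An E-box was present in 6 of their 23 windows (26.1%), against 7.15% of all 32851 windows. Of those 6, 2 are windows of the same gene, Tef. The cAMP response element TGACGTCA was in 1 clock window (4.35%) and 1.79% of all. The D-box TTATGTAA was likewise in 1 clock window (4.35%) and 0.938% of all, so each of these shares rests on a single window. Each motif was searched on both strands, and a match is no proof of binding. Among the genes described below, Per3 held a D-box but no E-box in its 1 window. Per2 and Arntl had no recorded match, but not every listed gene had a window, so they may not have been searched. The windows of 3 genes described next are printed with the E-box in capitals: Per1 (the first of its 2 windows, chr11:69098699-69098998, plus strand), Bhlhe41 (chr6:145865371-145865670, minus strand) and Ciart (chr3:95882179-95882478, minus strand), which holds 3.
Per1: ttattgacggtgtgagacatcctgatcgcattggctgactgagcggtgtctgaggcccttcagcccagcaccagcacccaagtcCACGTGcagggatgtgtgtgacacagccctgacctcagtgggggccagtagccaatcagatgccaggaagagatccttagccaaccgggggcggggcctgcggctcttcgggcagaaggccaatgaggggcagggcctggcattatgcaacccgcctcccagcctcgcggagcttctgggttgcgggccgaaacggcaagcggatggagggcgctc
Bhlhe41: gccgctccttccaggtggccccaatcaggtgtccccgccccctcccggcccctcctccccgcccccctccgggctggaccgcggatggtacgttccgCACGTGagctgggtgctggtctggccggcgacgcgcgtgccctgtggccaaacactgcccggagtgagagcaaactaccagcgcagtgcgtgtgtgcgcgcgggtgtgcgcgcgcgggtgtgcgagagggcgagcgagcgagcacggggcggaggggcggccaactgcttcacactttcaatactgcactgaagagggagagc
Ciart: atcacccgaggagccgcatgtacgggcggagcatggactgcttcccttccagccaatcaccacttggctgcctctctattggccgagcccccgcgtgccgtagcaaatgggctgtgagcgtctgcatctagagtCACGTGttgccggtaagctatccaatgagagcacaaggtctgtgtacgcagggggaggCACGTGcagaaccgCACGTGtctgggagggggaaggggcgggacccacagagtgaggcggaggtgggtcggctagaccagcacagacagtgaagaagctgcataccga

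Of the 19 clock and output genes, 14 were higher in HT fluoxetine, by a median of 0.13. At an unadjusted p under 0.05 there were 9 higher, where 2.43% of all genes were, and 1 lower. The one lower was Arntl, the activator, at 709 ± 47.2 against 804 ± 63.1 (-0.18 ± 0.06), with HT vehicle at 719 ± 41.5. It was singled out after its value was seen.

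Per2, a repressor, ran from 1797 through a median of 2026 to 2197 in HT fluoxetine and from 1322 through 1505 to 1809 in WT. The arms touched at their ends only. The means were 1991 ± 157 and 1550 ± 199 (0.37 ± 0.08), 0.37 in each sex, and HT vehicle was at 1477 ± 81.8. Bhlhe41, a repressor that itself binds E-boxes, ran from 956 to 1123 and from 751 to 928, without overlap, with means of 1029 ± 64.6 and 878 ± 64.7 (0.23 ± 0.06). Its HT vehicle mean was 940 ± 45.0. Per3 stood at 2098 ± 204 against 1747 ± 188 (0.27 ± 0.08), 0.43 in females and 0.10 in males, and HT vehicle at 1995 ± 111.

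Per1 differed by sex in WT. WT females held 4277 to 4724 and WT males 2818 to 3208, while HT fluoxetine females held 4115 to 5111 and males 4323 to 4832. The low values were thus the 3 WT males. The log2 difference was 0.32 ± 0.10 over both sexes, 0.05 in females and 0.59 in males. The test of the difference between the sexes gave an unadjusted p of 0.00117 and an adjusted p of 0.9998 (limma), so it did not pass. Ciart, a clock repressor named because it alone passed without the bulb-high libraries (0.46, limma adjusted p = 0.0447), stood at 774 ± 144 against 599 ± 89.4 with all 12 (0.36 ± 0.13). Its vehicle carriers were at 766 ± 52.7.

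Genes induced by glucocorticoid hormone, the stress and wake signal of the adrenal, stood above WT for 20 of 20 members, with a median of 0.20. Of these, 7 reached an unadjusted p under 0.05, against 2.43% of all genes that were higher at that level. The median was 0.07 in females, with 12 of 20 higher, and 0.39 in males, with 19 of 20 higher; no gene passed the test of a difference between the sexes. Per1 and Sult1a1 are members of this list too. Plin4, a lipid droplet coat protein, ran from 54.3 through a median of 94.2 to 207 in HT fluoxetine and from 30.2 through 42.6 to 62.6 in WT. Most of its spread was within the treated arm. The means were 107 ± 56.0 and 43.1 ± 11.1 (1.186 ± 0.284), and HT vehicle was at 74.3 ± 38.5. Lcn2, an iron-carrier protein, had few reads, from 3.47 to 45.3 in HT fluoxetine and from 0 to 10.5 in WT. The list's median was 0.16 to 0.29 when single libraries were left out and 0.20 without the bulb-high libraries. In HT vehicle against WT 13 of 20 were higher, with a median of 0.09. The half-site AGAACA of the glucocorticoid receptor was in 17.9% of 28 promoter windows of 18 of these genes and in 19% of all windows.

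**Figure D4:**
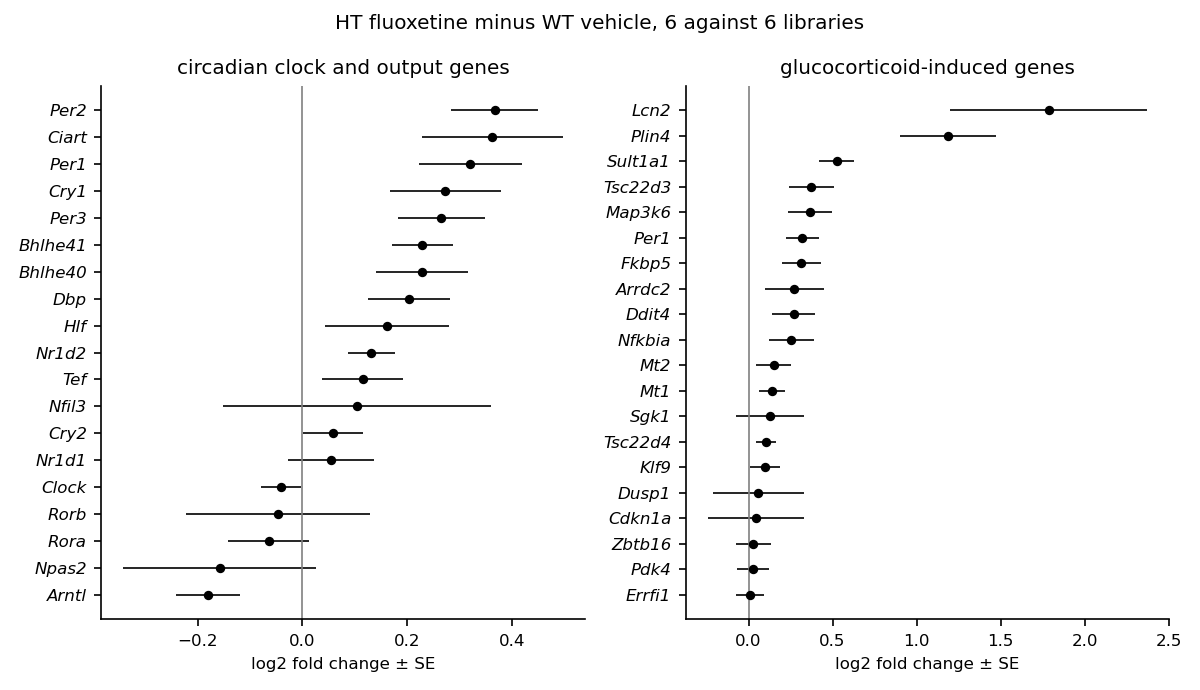
Log2 fold change of each clock or output gene (left) and each glucocorticoid-induced gene (right), HT fluoxetine minus WT vehicle, with bars of 1 standard error from limma. Per2 lies at 0.37 and Arntl at -0.18 on the left, and all 20 genes on the right lie above 0.

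Hypoxia response genes, which answer to HIF transcription factors when oxygen is short, stood above WT for 13 of 20 members (median 0.07), and 6 of them reached an unadjusted p under 0.05, all higher, as did 2.43% of all genes. Slc2a1, the glucose transporter of the blood-brain barrier, ran from 2875 through a median of 3498 to 3769 in HT fluoxetine and from 2240 through 2635 to 3396 in WT. One high WT library lay within the treated range. The means were 3468 ± 321 and 2663 ± 407 (0.39 ± 0.10), and HT vehicle was at 2735 ± 361. Hif3a, an inhibitory HIF subunit, was at 343 ± 50.6 against 232 ± 66 (0.59 ± 0.16), and the vehicle carriers were as high at 342 ± 80.8. Hif1a was at 2151 ± 88.7 against 1990 ± 80.4 (0.11 ± 0.04). The collagen hydroxylase gene P4ha1 was at 1153 ± 30.9 against 1053 ± 91.6 (0.13 ± 0.05) and at 928 ± 48.9 in HT vehicle. The glycolytic HIF targets Ldha and Pgk1 lay on the other side, at -0.15 ± 0.13 and -0.14 ± 0.07, and were singled out after their values were seen. The list's median was 0.04 without WT male 1 and 0.05 without HT fluoxetine male 1.

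Chaperones and stress genes of the endoplasmic reticulum, where secreted proteins fold, stood above WT for 20 of 26 members (median 0.05). An unadjusted p under 0.05 was reached by 2, both higher, where 2.43% of all genes were higher at that level. Pdia4, a protein disulfide isomerase, stood at 822 ± 57.2 against 727 ± 67.9 (0.18 ± 0.06) and the main chaperone Hspa5 at 5404 ± 217 against 5034 ± 487 (0.11 ± 0.05). In HT vehicle they stood at 707 ± 43.4 and 4821 ± 199. Sdf2l1 was at 0.13 ± 0.07 and the glutathione-degrading enzyme gene Chac1 at -0.18 ± 0.11. Without HT fluoxetine male 2 the median was 0.02.

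Kruppel-like zinc finger factors showed both directions, 7 of 14 higher with a median of -0.01 (0.05 without HT fluoxetine male 1). Klf15, a glucocorticoid-responsive metabolic regulator, ran from 605 to 765 in HT fluoxetine and from 482 to 666 in WT, with means of 690 ± 63.4 and 547 ± 67.3 (0.34 ± 0.08), and HT vehicle was at 628 ± 55.9. Klf4 was at 270 ± 46.0 against 200 ± 35.7 (0.44 ± 0.14). Klf11 was lower, at 177 ± 13.3 against 201 ± 14.2 (-0.18 ± 0.07), with the vehicle carriers at 222 ± 6.90. Klf2, a flow-responsive factor of endothelium, ran from 402 to 592 in treated males and from 215 to 290 in WT males, but from 309 to 370 and from 279 to 367 in females. Its log2 difference was 0.91 in males and 0.05 in females (unadjusted p of the difference 0.00383, limma adjusted p = 0.9998). The DESeq2 contrast within males called Per1, Klf2 and 6 others.

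Immediate early genes, switched on within minutes of neuronal firing, lay on opposite sides of 0 in the sexes. In females 1 of 22 was higher, with a median of -0.55, and in males 21 of 22, with a median of 0.48; over both sexes the median was 0.03 with 12 of 22 higher. No gene passed the test of the difference between the sexes. Npas4, an activity-dependent transcription factor, ran from 329 to 1117 in HT fluoxetine and from 491 to 2453 in WT, and the highest value was WT female 2. Its log2 difference was -0.62 ± 0.38. Klf10 stood at 0.15 ± 0.13 and Egr4 at -0.24 ± 0.23, -0.70 in females and 0.22 in males. The median of this list lay on either side of 0, from -0.07 to 0.12, when single libraries were left out. It was 0.15 with 18 of 22 higher without the bulb-high libraries, and 0.11 with 18 of 22 higher without the libraries highest in Drd2 and Ttr. Bulb markers split the same way by sex, with 2 of 16 higher in females and 15 of 16 in males, and medians of -0.37 and 0.45. Once the bulb score entered the fit, the immediate early gene median over both sexes was 0.03 with 12 of 22 higher, as without it. Bulb scores were spread alike in the 2 arms, so a median over both sexes could hardly move with them. It therefore says nothing of the split by sex, and the medians within each sex under this covariate are not given. In the covariate fit no gene was called for a difference between the sexes. There 585 genes had an unadjusted p under 0.05 for that difference, against 357 without the covariate.

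Neurotrophin and late activity genes act downstream of firing over hours. All 20 were lower, by a median of -0.11. Where 1.83% of all genes were lower at an unadjusted p under 0.05, 1 of the 20 reached it. This was Sorcs3, a neuronal sorting receptor, which ran from 1128 to 1473 in HT fluoxetine and from 1375 to 1555 in WT (1268 ± 126 against 1485 ± 67.2, -0.23 ± 0.06), with HT vehicle at 1343 ± 44.8. Nptx2, which clusters glutamate receptors, stood at 1066 ± 114 against 1192 ± 117 (-0.16 ± 0.08). The scaffold gene Homer1 was at 4040 ± 625 against 4455 ± 296 (-0.15 ± 0.10) and lower in the vehicle carriers at 3464 ± 550. Cort, a neuropeptide of interneurons, was at -0.26 ± 0.17. In HT vehicle against WT 0 of 20 were higher, with a median of -0.12. The HT fluoxetine median was -0.05 without HT fluoxetine female 1 and -0.06 without HT fluoxetine male 1. Without the bulb-high libraries it was -0.006 and 9 of 20 were higher.

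Serotonin receptors and monoamine turnover genes, the nearest to the drug's target, lay around 0. Of 17 tested 8 were higher, the median was -0.009 (-0.06 to -0.007 when single libraries were left out), and 0 reached an unadjusted p under 0.05. The transporter gene Slc6a4, the target itself, was not analysed here. Htr2c, a Gq-coupled receptor, ran from 325 to 1212 in HT fluoxetine and from 748 to 1271 in WT, with means of 794 ± 347 and 1017 ± 222 (-0.46 ± 0.29). Without the bulb-high libraries it was at -0.13. Htr7 stood at 176 ± 24.1 against 193 ± 27.9 (-0.13 ± 0.10), the monoamine oxidase gene Maob at 601 ± 47.8 against 557 ± 48.3 (0.11 ± 0.07) and the low-affinity monoamine carrier Slc22a3 at 81.7 ± 13.5 against 71.5 ± 14.1 (0.20 ± 0.12). With a standard error of 0.29 for Htr2c, a shift of moderate size was not detectable.

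Of the 14 astrocyte markers 13 were higher (median 0.13), and 5 reached an unadjusted p under 0.05, where 2.43% of all genes were higher at that level. Their summed level ran from 130790 to 144311 in HT fluoxetine and from 122615 to 134980 in WT. Gjb6, a gap junction protein, ran from 1160 to 1464 and from 805 to 1267, with means of 1308 ± 119 and 1025 ± 169 (0.36 ± 0.10). Gja1, the other main astrocyte connexin, was at 5042 ± 551 against 4282 ± 380 (0.23 ± 0.08), the growth factor receptor Fgfr3 at 2964 ± 232 against 2632 ± 168 (0.17 ± 0.06) and the glutamate transporter Slc1a3 at 18423 ± 1655 against 16165 ± 1366 (0.19 ± 0.08). In HT vehicle these 4 stood at 1149 ± 116, 4629 ± 578, 2860 ± 197 and 16498 ± 1785 in that order. The median was 0.07 without HT fluoxetine male 1 and 0.08 without the bulb-high libraries.

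Of the 14 microglia markers 11 were higher (median 0.07), and 2 reached an unadjusted p under 0.05, against the same 2.43%. Their median was 0.04 without WT female 1 and 0.11 without HT fluoxetine male 1. The complement gene C1qc stood at 1206 ± 155 against 994 ± 83.6 (0.27 ± 0.09), the growth factor receptor Csf1r at 2748 ± 269 against 2451 ± 172 (0.16 ± 0.06), and the lysosomal protease gene Ctss at 0.12 ± 0.06. The vehicle carriers were at 1155 ± 101 for C1qc and 2658 ± 152 for Csf1r. Among interferon-stimulated genes 18 of 20 were higher (median 0.17), but 1 reached an unadjusted p under 0.05, Oasl2 (151 ± 39.2 against 113 ± 23.8, 0.40 ± 0.18). Ifit3 stood at 0.36 ± 0.17, Usp18 at 0.47 ± 0.23 and Stat2 at 0.07 ± 0.04. The interferon median was 0.06 without HT fluoxetine male 1, 0.10 without HT fluoxetine female 1 or without WT female 1, and 0.09 without the bulb-high libraries.

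Vessel markers leaned lower, 12 of 17 with a median of -0.04 (-0.07 without HT fluoxetine male 2). An unadjusted p under 0.05 was reached by 1 higher and 1 lower member, where 2.43% and 1.83% of all genes were. Ly6c1, an endothelial surface protein, was at 777 ± 40.9 against 676 ± 93.5 (0.21 ± 0.08), while the pericyte gene Rgs5 (-0.18 ± 0.08) and the endothelial genes Kdr (-0.26 ± 0.12) and Pecam1 (-0.09 ± 0.05) were lower. Mfsd2a and Slc2a1, both expressed by brain endothelium, stood higher in HT fluoxetine. Whether vessel content bears on either gene was not tested. All 13 meningeal fibroblast markers were higher, by a median of 0.28, with 0 at an unadjusted p under 0.05. Their summed level ran from 21421 to 45449 in HT fluoxetine and from 16908 to 36377 in WT. Slc22a6 stood at 0.37 ± 0.22, Lum at 0.45 ± 0.26, Ogn at 0.52 ± 0.32 and Ptgds at 0.32 ± 0.22. The meningeal median was 0.12 to 0.46 when single libraries were left out. Without the bulb-high libraries it was -0.01, with 6 of 13 higher.

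Other tissue and cell markers also lay to one side. Of 11 choroid plexus markers listed 6 could be tested, and all 6 were higher (median 0.52). Their median was 0.27 without HT fluoxetine male 1, and 0.28 with 4 higher without the bulb-high libraries. Their summed levels were 132 to 997 in HT fluoxetine and 106 to 491 in WT. Striatal markers were lower for 14 of 14 (median -0.20, -0.42 to 0.08 when single libraries were left out, highest without WT female 1), with sums of 7562 to 15394 and 8460 to 22263. Myelin markers were lower for 14 of 15 (median -0.16, -0.24 to -0.05 when single libraries were left out, nearest to 0 without WT female 1). Excitatory neuron markers were lower for 12 of 15 (median -0.08, but 0.05 without HT fluoxetine male 1 and 0.03 without the bulb-high libraries), and their sums ran from 50167 to 82574 and from 54284 to 79959. Of these lists, choroid plexus alone had a member at an unadjusted p under 0.05, a single one. Their part in the results above was not tested. Synaptic lists also leaned lower. Of 30 glutamate receptor and postsynaptic genes 22 were lower (median -0.06), of 24 presynaptic release genes 21 (median -0.07) and of 19 GABA-A receptor and inhibitory synapse genes 14 (median -0.03), with 0 at an unadjusted p under 0.05 in each. Without the bulb-high libraries the glutamate median was -0.009 with 13 of 30 higher, the presynaptic median 0.03 with 16 of 24 higher and the GABA-A median -0.005 with 9 of 19 higher. The presynaptic median was also above 0, at 0.01, without HT fluoxetine male 1. Of the 37 autism risk genes 24 were lower (median -0.02) and of the 24 cholesterol synthesis genes 18 (median -0.04), again with 0, and the cholesterol median was 0.01 without the bulb-high libraries.

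**Figure D5:**
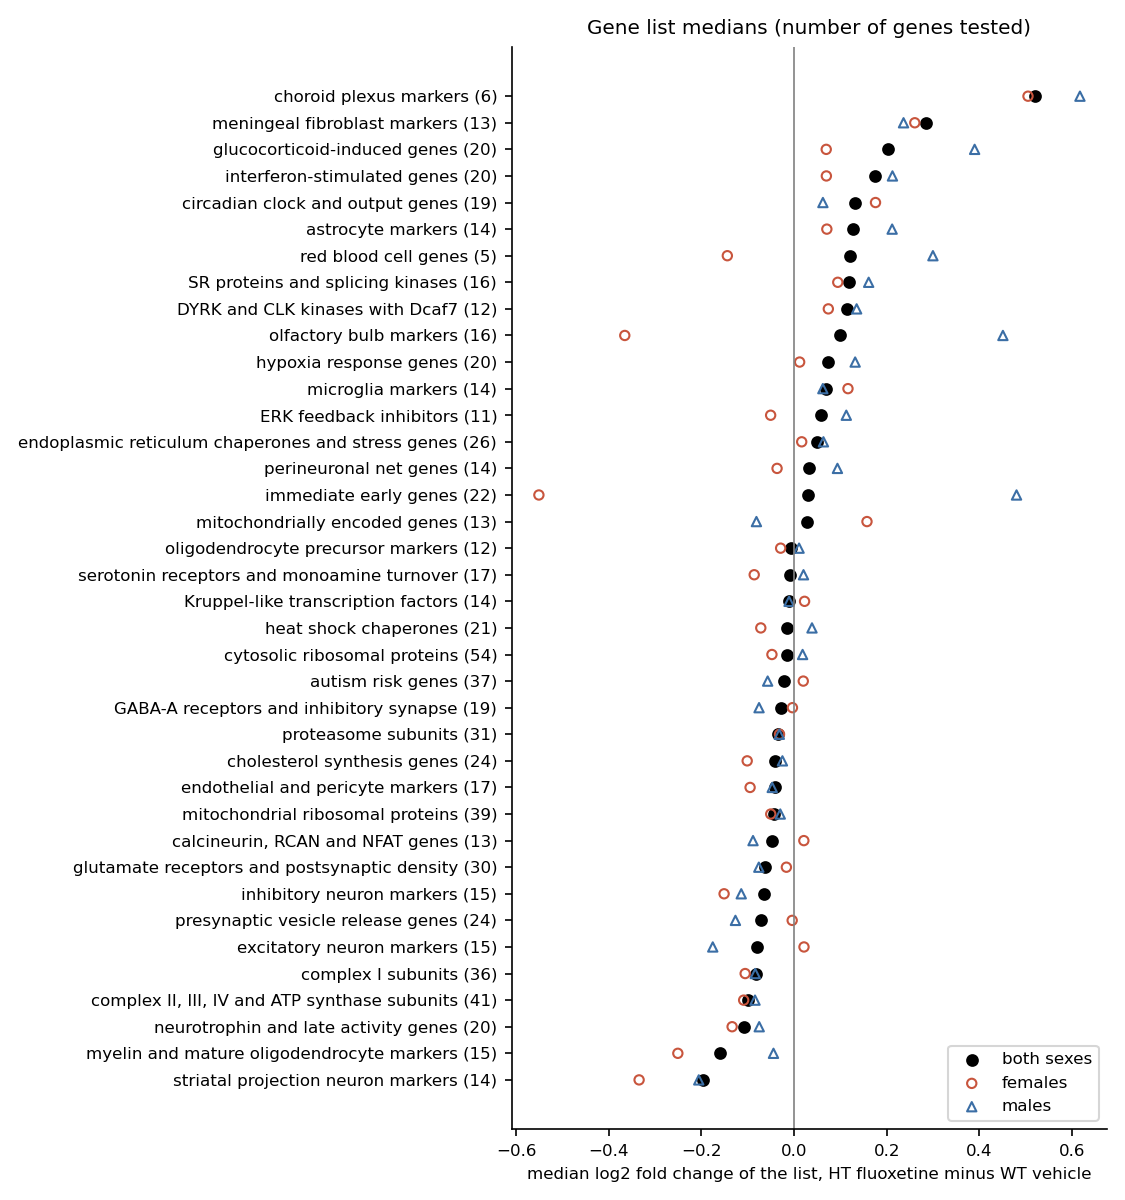
Median log2 fold change of 38 gene lists, HT fluoxetine minus WT vehicle, for both sexes (filled circles), females (open circles) and males (triangles), with the number of genes tested in brackets. The sexes lie far apart for immediate early genes (-0.55 and 0.48) and bulb markers (-0.37 and 0.45) and close together for complex I (-0.11 and -0.08).

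Within females 0 genes passed limma (347 at an unadjusted p under 0.05), within males 0 (736), and in the test of the difference between the sexes 0 (357). The median standard error was 0.14 within a sex and 0.20 for the difference, against 0.0977 over both. The smallest adjusted p was 0.591 in males, for Per1, and 1 in females.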

How the data were processed

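RNA sequencing was done on prefrontal cortex, with a kit that selects polyadenylated RNA and keeps the strand, per the labels' protocols. A single table was deposited by the authors, holding the normalized signal of 18240 Ensembl genes. The submitters' processing notes name Salmon 0.11.2, DESeq2 1.19.11, R 3.6.0 and the build GRCm38, with no role stated. The counting setting for strand is not given in the sources used here. Within a library the values were whole multiples of 1 read's value (100% whole within 0.01 of a read), which gave the recovered reads. Symbols and coordinates came from GENCODE M21, which matched 18227 identifiers.

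Genes were tested with limma 3.58.1 (R 4.3.3, intensity trend) on values as log2(value + 1), for 16814 genes with a mean of at least 10 over the 12 libraries, with sex as a block. Fold changes are on that scale, on which adding 1 shrinks the change of genes with low values. Fits by sex used 4 group means. edgeR 4.0.16 and DESeq2 1.42.0 were run on recovered reads as alternatives, and the steps were tested on simulated data. Whether the libraries of a group come from separate animals is not stated, and the p-values then measure only the spread among these samples, possibly technical. The smallest chi-square per gene between libraries of a group was 5.75, where sampling noise gives 1.

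The comparison and the 38 lists (760 genes, 752 of them tested) were chosen with earlier results of these data known. Lists are described by counts and medians, with no test. Genes were named by rule: the 5 smallest p in each direction where none was called, Dyrk1a, and up to 4 members with the smallest p of each list described; 1 of these genes is not reported here. Values for HT vehicle come from the same table. The alternatives changed the pseudocount, filter, scaling, block, tool, covariate and libraries, and 2 that left out libraries of unusual tissue content were chosen after seeing the data.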

Additional observations from a re-analysis of the deposited data

Results flagged for a closer look

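For the named genes, 154 groups of 6 libraries were searched for a library far from the other 5, and 12 stood out. Chance flags about 1 in 20 groups. In WT female 2, a bulb-high library, Akap5 was low at 2946.83 (next 3663), Atp5j2 was low at 1677.44 (next 1802) and Npas4 was high at 2452.73 (next 1222). In HT fluoxetine female 1, also bulb-high, Naa38 was low at 451.165, Ly6c1 was high at 856.256 and Lum was high at 221.67 (next 114). In HT fluoxetine male 1, the third bulb-high library, Klf4 was high at 361.317 (next 261). In WT male 3, Ctss was high at 1622.6 (next 1338) and Lum at 96.247. Single cases were Bhlhe41, low at 751.326 in WT female 1, Hif3a, high at 361.1 in WT male 2 (next 242), and Hspa5, low at 4991.61 in HT fluoxetine male 3. The causes were not tested.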

How the results depend on the processing

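The count of 0 genes called for HT fluoxetine against WT held in 23 of 26 alternatives. It was 3 with DESeq2, 3 when the bulb score was a covariate (Mfsd2a, Timp3 and Trp53inp1, all higher), and 1 without the bulb-high libraries (Ciart). At an unadjusted p under 0.05 there were 2020 genes with that covariate, 1019 without the bulb-high libraries and 1143 without WT female 2, against 716. For females it was 1 with DESeq2, and for males 8 with DESeq2 and 1 without the bulb-high libraries. The DESeq2 call in females was Gm7334, which is also among the 8 in males. Its log2 fold changes of 20.6 and 22.6 were far outside those of the other genes called, so its size is not reliable. Leaving out single libraries gave 0 to 1 for males (Gm20458, lower, without HT fluoxetine male 3) and 0 for the other counts. These genes were named after their values were seen. The difference between the sexes gave 0 in all 25 alternatives.

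The Dyrk1a difference ran from 251 to 306 normalised reads with exact permutation p of 0.005 to 0.0312. The 0.0312 came with the replicate number as a block, where it is the smallest p that the fewer arrangements allow. Of 77 named genes 75 kept their direction in every alternative that gave them a value, which was all 26 except for Lcn2 (22) and Usp18 (25). Akap5 was at 0.0129 and Egr4 at 0.0438 without the bulb-high libraries, and the cause was not tested. Of 38 list medians 22 kept their sign throughout.

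Same-numbered libraries of the 2 arms had correlations of -0.57 to -0.02, and 0 of 12 libraries correlated best with their own number. The lowest was between HT fluoxetine female 2 and WT female 2, whose bulb marker scores were -1.49 and 1.82. These correlations take in tissue content, so they cannot show whether replicate numbers pair the samples. With the replicate number as a block 0 genes were called and 470 had an unadjusted p under 0.05. The Dyrk1a difference of 276 then had an exact permutation p of 0.0312, the smallest possible in that test. Among 16814 genes tested, differences of several standard errors did not pass. Sdc4 (0.42 ± 0.08) and Dyrk1a (0.17 ± 0.04) each had a limma adjusted p of 0.945. Chance alone would give 841 genes at an unadjusted p under 0.05, and limma gave 716. Differences of this size in single genes are therefore no sign of effects missed for lack of libraries. Whether more libraries would let either gene pass was not tested.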
